A study of Rattus norvegicus with 6 samples.

Results

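The miR-29 family was followed in small RNA libraries of PC12 cells, a rat line derived from an adrenal pheochromocytoma and used as a neuron-like model. All rows of the table whose name is miR-29a, miR-29b or miR-29c were taken, whichever arm they come from, which gave 6 of 1289 rows: the 3p and the 5p arm of each miRNA. The labels place 3 libraries in a group named EN and 3 in a group named EC. The labels do not spell out these names or give a treatment, dose, time or genotype. The series title concerns endothelial cell exosomes engineered with Netrin-1, a guidance protein for axons, and peripheral nerve repair. Every library comes from the same cell line. The labels do not say that replicates were separate cultures, and the p-values rest on the spread among these libraries, which can be purely technical.

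MicroRNAs are cut as a short duplex from a hairpin precursor, and 1 strand, the guide, is held by an Argonaute protein and pairs through its seed with messenger RNAs that are then repressed. In the miR-29 family the guide is the 3p arm, and most of the 5p arm is normally degraded. The family is best known for repressing collagen, elastin and other extracellular matrix genes and the DNA methyltransferases Dnmt3a and Dnmt3b. In maturing mouse neurons it rises and restrains pro-apoptotic genes of the BH3-only class.

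The mature sequences below, from RefSeq (build GRCr8), are written 5′ to 3′ with the seed, bases 2 to 8, in capitals, because the guide arms share 1 seed and differ elsewhere. RefSeq sequences were found for all 6 rows, whose names carry the prefix rno- for Rattus norvegicus.
rno-miR-29a-3p: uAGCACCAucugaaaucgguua
rno-miR-29b-3p: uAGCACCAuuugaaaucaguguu
rno-miR-29c-3p: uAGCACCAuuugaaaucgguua
rno-miR-29a-5p: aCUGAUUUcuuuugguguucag
rno-miR-29b-5p: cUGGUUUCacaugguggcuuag
rno-miR-29c-5p: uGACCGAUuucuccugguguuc
The 3p arms had the seed AGCACCA, which no other mature rat name in that table carried at bases 2 to 8. The 5p arms each had a seed that no other name shared. Counting positions from 1 at the 5′ end, miR-29c-3p differed from miR-29a-3p at 1 base, C10U, with miR-29a-3p named first. MiR-29b-3p differed from miR-29c-3p by G18A, U21G and A22U over the 22 positions compared, with miR-29c-3p named first. MiR-29b-3p and miR-29c-3p have UUU at bases 9 to 11, where miR-29a-3p has UCU. In human cells an uninterrupted uracil tract at these bases has been linked to fast decay of miR-29b, and its 3′ end, AGUGUU, to import into the nucleus. Neither decay nor location was measured here.

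The family comes from 4 hairpin genes in a pair of clusters, and the hairpins are shown because the counts of each arm are set against this layout below, with the mature arms in capitals and coordinates of the RefSeq build GRCr8.
Mir29a, chr4:60617955-60618042, minus strand: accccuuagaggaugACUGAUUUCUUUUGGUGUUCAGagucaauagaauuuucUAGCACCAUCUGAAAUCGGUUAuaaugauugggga
Mir29b1, chr4:60618334-60618414, minus strand: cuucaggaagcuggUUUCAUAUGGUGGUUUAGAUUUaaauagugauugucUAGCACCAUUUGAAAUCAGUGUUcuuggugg
Mir29b2, chr13:109098831-109098911, plus strand: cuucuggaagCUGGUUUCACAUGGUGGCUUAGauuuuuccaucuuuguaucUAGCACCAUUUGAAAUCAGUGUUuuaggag
Mir29c, chr13:109099359-109099446, plus strand: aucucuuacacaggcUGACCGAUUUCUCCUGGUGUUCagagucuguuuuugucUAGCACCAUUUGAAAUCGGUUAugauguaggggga
Mir29a and Mir29b1 lie 291 bases apart, and Mir29b2 and Mir29c lie 447 bases apart. MiR-29b-3p is the same sequence from both of its genes, so its count cannot be divided between the clusters. The row of miR-29b-5p has the sequence of the Mir29b2 hairpin, and the 5p arm of Mir29b1 is not analysed here.

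The libraries held between 4521694 and 5371351 miRNA counts in EN and between 6153582 and 6554639 in EC. Of 1289 rows, 628 passed the filter on low counts, the 6 miR-29 rows among them. Levels are given as counts per 1000000 miRNA counts after TMM scaling (CPM), a scaling that sets the bulk of rows level between libraries. In edgeR's quasi-likelihood fit, with Benjamini-Hochberg adjustment over all tested rows, 25 of the 628 rows, or 3.98 percent, passed an adjusted p of 0.05. Of these, 12 rows, or 1.91 percent, were lower in EN. A list of 6 neural and neuroendocrine miRNAs, taken as PC12 markers, summed to between 2270 and 2751 CPM in EN and between 2201 and 2715 CPM in EC. Nearly all of it was miR-7a-5p and miR-9a-5p, with log2 fold changes of 0.35 (adjusted p = 0.141 by edgeR) and -0.40 (adjusted p = 0.176). MiR-375-3p stood at or below 3.19 CPM, miR-124-3p at or below 1.10 CPM, miR-127-3p at or below 1.30 CPM and miR-183-5p at or below 12.1 CPM in every library.

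All 3 guide arms stood lower in EN than in EC in every library. MiR-29b-3p differed most, at 49.7 percent of its EC level, followed by miR-29c-3p at 63.9 percent and miR-29a-3p at 77.7 percent. None of the 6 family rows passed the adjusted threshold in edgeR's quasi-likelihood test. At an unadjusted p of 0.05 the 3 guide arms passed, all lower, where 21.7 percent of all tested rows passed it and 11.5 percent did so with a lower level in EN. The median log2 fold change was -0.65 for the 3p arms and 0.11 for the 5p arms, beside 0.02 over all tested rows.

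MiR-29b-3p, the copy made by both clusters, stood at 3318, 2644 and 2474 CPM in the EN libraries, against 4715, 4717 and 7548 CPM in the EC libraries. The groups did not overlap, and EC replicate 3 lay well above the other EC libraries. The log2 fold change was -1.01 (SE 0.22), with an adjusted p of 0.0515 by edgeR, just outside the threshold of 0.05. Without EC replicate 2 the adjusted p by edgeR was 0.0498, and without each of the other libraries it was 0.0584 to 0.190. Without EC replicate 3 the log2 fold change was -0.73 (adjusted p = 0.127).

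MiR-29c-3p, of the chromosome 13 cluster, stood at 204, 220 and 178 CPM in EN and at 313, 275 and 353 CPM in EC. Its lowest EC value lay above its highest EN value, and the scatter within each group was small, with a coefficient of variation of 10.5 percent in EN and 12.5 percent in EC. The log2 fold change was -0.65 (SE 0.15, adjusted p = 0.0594 by edgeR). Without 1 library the adjusted p was 0.0513 to 0.190.

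MiR-29a-3p, of the chromosome 4 cluster, was the most abundant member and ranked between 17 and 27 among the 584 known miRNA rows of each library. It stood at 12649, 14819 and 11991 CPM in EN and at 16871, 14921 and 18989 CPM in EC. The groups were separated only narrowly, by EN replicate 2 and EC replicate 2. Its log2 fold change of -0.36 (SE 0.12) had an adjusted p of 0.135 by edgeR, and of 0.0826 to 0.341 without 1 library.

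**Figure D1:**
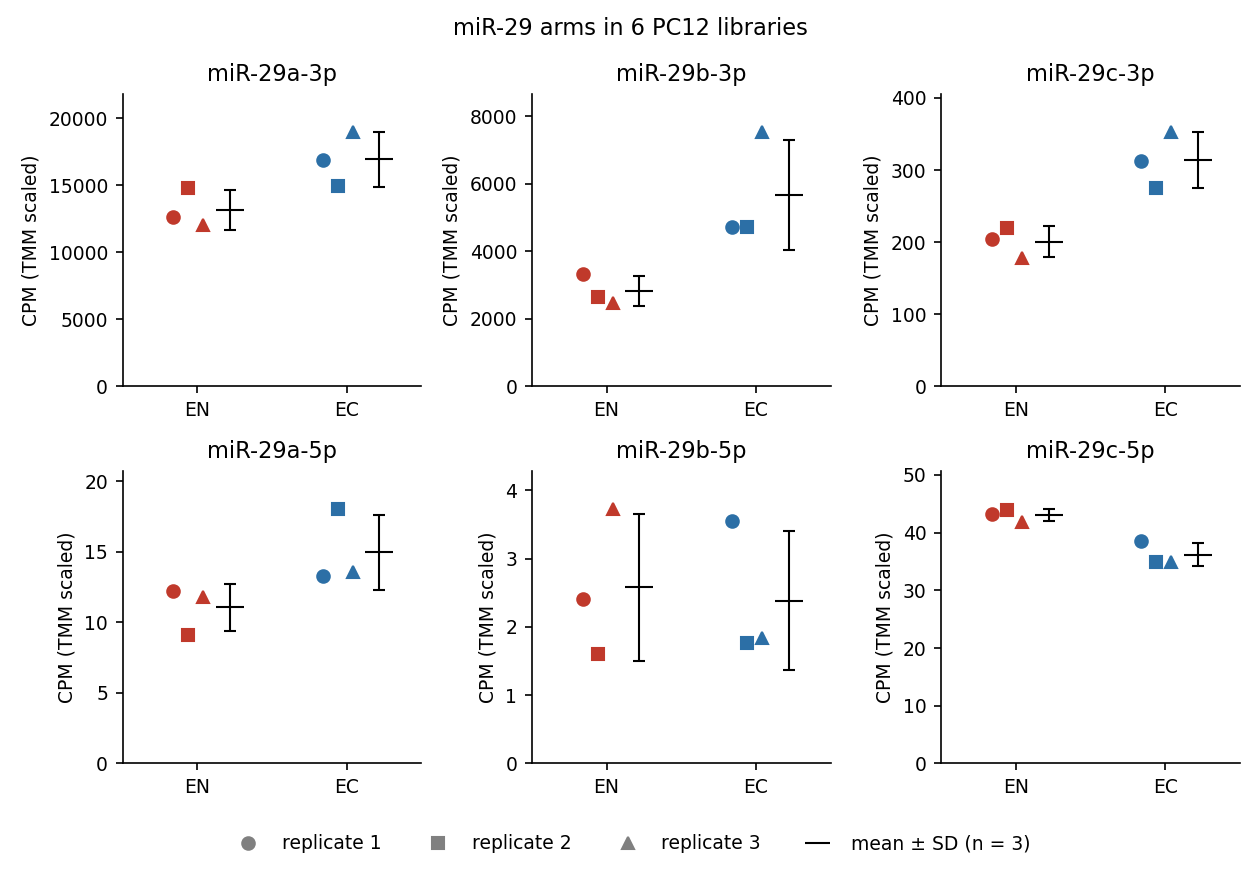
Level of each miR-29 arm in CPM (linear axis from 0) in the EN and EC libraries, with 1 symbol per replicate number and bars for mean ± SD (n = 3). The 3 guide arms in the upper row lie lower in EN, by most in miR-29b-3p at 2812 against 5660 CPM on average, while miR-29c-5p lies higher in EN in CPM (its log2 fold change of 0.25 was -0.080 with library totals implied by RPM).

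The 5p arms did not follow a single direction. MiR-29c-5p, cut from the same hairpin as miR-29c-3p, stood at 43.3, 43.9 and 41.8 CPM in EN and at 38.5, 35.0 and 35.0 CPM in EC. Here every EN library was above every EC library, opposite to its 3p arm, with a log2 fold change of 0.25 (SE 0.13, adjusted p = 0.304 by edgeR) that was -0.080 with the library totals behind the RPM values. MiR-29a-5p stood at 12.2, 9.15 and 11.8 CPM in EN and at 13.3, 18.0 and 13.6 CPM in EC. It was lower in each EN library, like its 3p arm, with a log2 fold change of -0.43 (SE 0.22, adjusted p = 0.296). This value was -0.28 without EN replicate 2, -0.25 without EC replicate 2 and -0.76 with library totals implied by RPM, and passed in none of these. MiR-29b-5p had only 13, 7 and 17 counts in EN and 23, 11 and 12 in EC. These values overlapped, and its log2 fold change of 0.11 (SE 0.45, adjusted p = 0.901) ranged from -0.23 to 0.53 without 1 library. In all, 4 members had every EN library below every EC library and 1 had every EN library above. Over all tested rows 14.6 percent lay below in this way, 15.0 percent above, and 29.6 percent in either direction.

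In every library the order of levels was the same: miR-29a-3p, miR-29b-3p, miR-29c-3p, miR-29c-5p, miR-29a-5p and miR-29b-5p. Neighbours in this order did not overlap over the 6 libraries. The nearest pair by ratio was miR-29a-3p and miR-29b-3p, where the lowest value of the first was 11991 CPM and the highest of the second 7548 CPM.

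**Figure D2:**
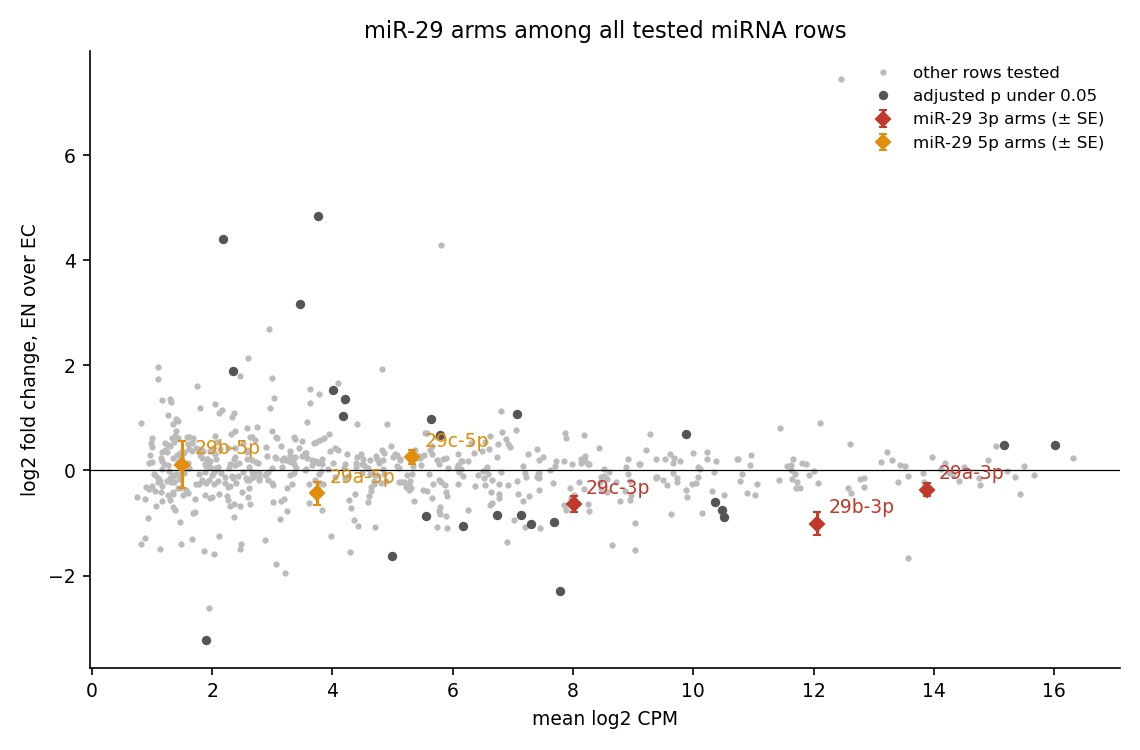
Log2 fold change of EN over EC against mean log2 CPM for the 628 tested rows, with the miR-29 3p arms in red and the 5p arms in orange (bars are ± SE) and the 25 rows past the adjusted threshold in dark grey. The 3p arms lie below 0, from -1.01 to -0.36, and miR-29c-5p and miR-29b-5p lie above it, at 0.25 and 0.11 (-0.080 and -0.21 with library totals implied by RPM).

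Because the guide arms share a seed, their proportions were compared within each library, where depth and scaling cancel. MiR-29a-3p made up 78.2, 83.8 and 81.9 percent of the 3p counts of the family in EN and 77.0, 74.9 and 70.6 percent in EC. MiR-29b-3p made up 20.5, 15.0 and 16.9 percent in EN and 21.5, 23.7 and 28.1 percent in EC, and miR-29c-3p the small remainder, at most 1.43 percent. The pool thus held a larger part of miR-29a-3p in each EN library than in any EC library. The difference in the share of miR-29a-3p was 7.11 percentage points (two-sided exact permutation p = 0.1, the minimum for groups of 3). Wilson 95 percent intervals of these shares reached at most 0.292 percentage points to either side, which covers counting error only.

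As log2 ratios of counts, miR-29b-3p to miR-29a-3p stood at -1.93, -2.49 and -2.28 in EN and at -1.84, -1.66 and -1.33 in EC. The groups were adjacent but separate, and the difference of the means was -0.62 (two-sided exact permutation p = 0.1). The ratio of miR-29c-3p to miR-29a-3p stood at -5.95, -6.07 and -6.07 in EN and at -5.75, -5.76 and -5.75 in EC. The difference was -0.28 (two-sided exact permutation p = 0.1), with an SD of 0.069 in EN and 0.0068 in EC. An SD from 3 libraries is itself uncertain. The ratio of miR-29b-3p to miR-29c-3p overlapped between the groups, with means of 3.80 in EN and 4.14 in EC (two-sided exact permutation p = 0.2). Adjusted over these 3 ratios, no p can pass 0.05. MiR-29a-3p and miR-29c-3p differ at 1 base, and the sources used here do not give how reads with a mismatch were assigned. With both summed, a choice made after seeing the data, the difference of miR-29b-3p from the sum was -0.62. The sum is nearly all miR-29a-3p, so it had to stay near the ratio to miR-29a-3p alone. It cannot test the ratio of miR-29c-3p to miR-29a-3p.

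The combined 3p arms took 1.63, 1.71 and 1.47 percent of all miRNA counts in EN and 2.20, 2.03 and 2.69 percent in EC. Each EN library was thus below each EC library, and the mean of EN minus EC was -0.70 percentage points. In CPM the sum averaged 16166 ± 1520 in EN and 22901 ± 3595 in EC (SD, n = 3). The combined 5p arms averaged 56.7 ± 1.76 CPM in EN and 53.5 ± 2.69 CPM in EC, and these groups overlapped.

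Arm use was compared within each hairpin. In miR-29c, 1 count of the 5p arm went with 4.71, 5.01 and 4.26 counts of the 3p arm in EN and with 8.14, 7.86 and 10.1 in EC. The log2 ratio of 5p to 3p rose to -2.21 in EN, against -3.11 in EC, a difference of 0.90 (SE 0.18, adjusted p = 0.0351 by limma with Benjamini-Hochberg adjustment over 107 miRNAs). Of those 107 miRNAs 6 passed, or 5.61 percent, and in 2 of them, or 1.87 percent, the ratio was higher in EN. The call was kept without EC replicate 2 (adjusted p = 0.0345) but not without EN replicate 1 (0.112), EN replicate 2 (0.116), EN replicate 3 (0.216), EC replicate 1 (0.0905) or EC replicate 3 (0.167), each an adjusted p, and the difference ranged from 0.78 to 0.96. With a lower minimum of 10 counts, which raised the number of miRNAs tested to 139, the adjusted p was 0.0709.

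In miR-29a no difference in arm use was called. For 1 count of miR-29a-5p there were 1036, 1620 and 1014 counts of miR-29a-3p in EN and 1270, 827 and 1397 in EC. These values overlapped, and the difference of the log2 ratio was -0.06 (SE 0.30, adjusted p = 0.910 by limma). The arm ratio of miR-29c minus that of miR-29a, taken within each library on the log2 scale, was 7.76, 8.31 and 7.87 in EN and 7.27, 6.71 and 7.10 in EC. All EN values exceeded all EC values, by 0.95 on average (two-sided exact permutation p = 0.1, the smallest possible). In miR-29b the 5p counts were below the minimum mean of 20 counts set for this test. Its log2 ratio stood at -10.3, -10.5 and -9.29 in EN and at -10.3, -11.3 and -11.9 in EC, and it sets the 5p arm of 1 gene against the 3p arm of both.

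**Figure D3:**
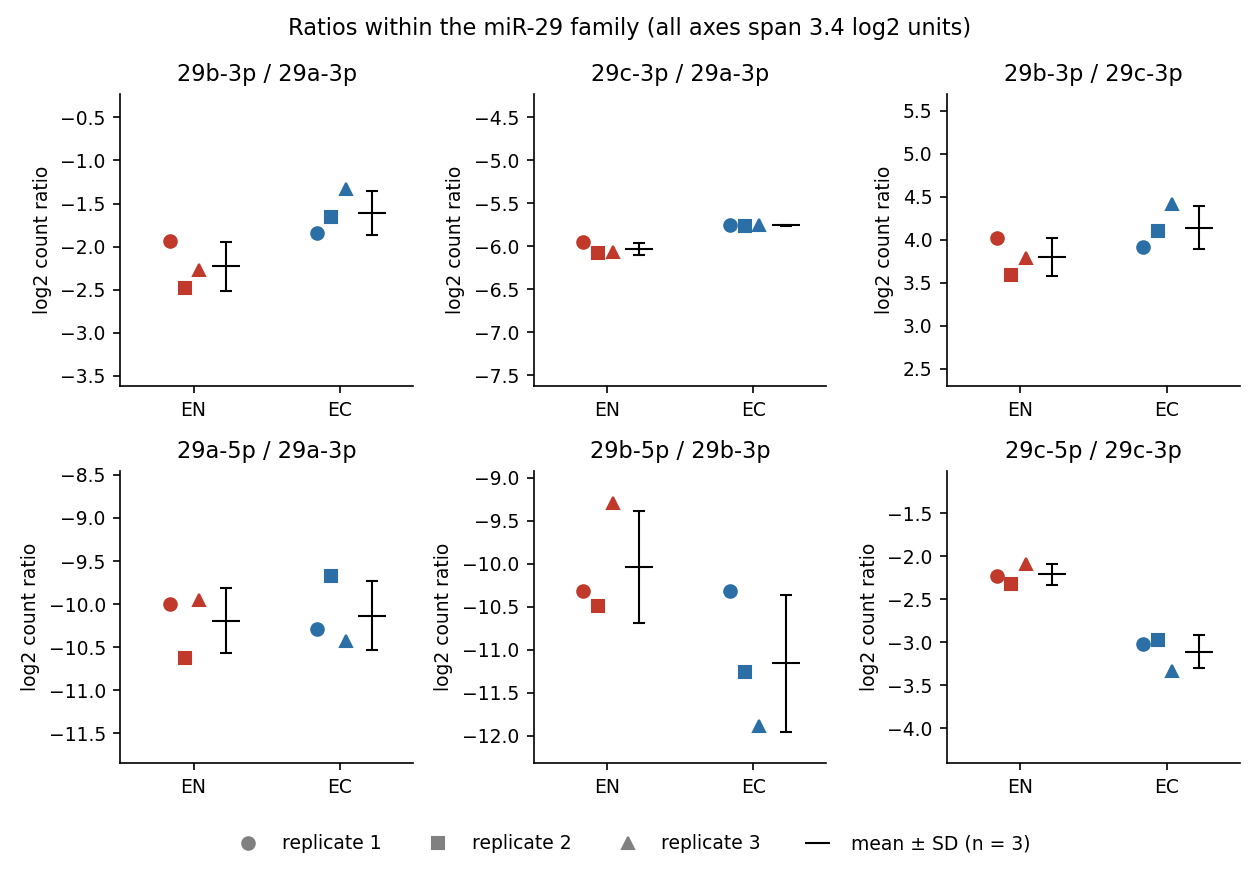
Log2 ratios of counts within each library, between guide arms (upper row) and between the 5p and 3p arm of each miRNA (lower row), with bars for mean ± SD (n = 3) and every axis spanning the same number of log2 units. The ratio of 29c-5p to 29c-3p lies higher in EN (-2.21) than in EC (-3.11), and that of 29a-5p to 29a-3p overlaps between the groups.

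For 3 of the 4 hairpins, RefSeq lists another miRNA gene on the opposite strand, which covers Mir29a and Mir29c over their whole length of 88 bases and Mir29b1 over 36 bases. Their mature sequences, shown because each is the exact reverse complement of part of a miR-29 guide arm, are given with their own seeds in capitals.
miR-3556a: cGAUUUCAgauggugcua
miR-3556b: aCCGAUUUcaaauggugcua
miR-3587: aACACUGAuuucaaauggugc
MiR-3556a matches 18 bases of miR-29a-3p, miR-3556b 20 bases of miR-29c-3p and miR-3587 21 bases of miR-29b-3p. A read of either strand cannot be told from its partner unless strand was used in counting, and the sources used here do not say whether it was. The rows did not move together. MiR-3556a stood at 597, 921 and 780 CPM in EN and at 471, 430 and 517 CPM in EC, higher in each EN library while miR-29a-3p was lower. Its log2 fold change was 0.70 (SE 0.18, adjusted p = 0.0710 by edgeR), and it passed in 4 of 17 alternatives. Without EN replicate 1 it was 0.84 (adjusted p = 0.0330), without each of the other libraries the adjusted p was 0.0947 to 0.190, and with library totals implied by RPM it was 0.36 (adjusted p = 0.155). As a percent of both rows, miR-3556a took 4.51, 5.85 and 6.11 in EN and 2.72, 2.80 and 2.65 in EC.

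MiR-3556b stood at 26.8, 30.2 and 27.8 CPM in EN and at 27.2, 20.9 and 28.7 CPM in EC, which overlapped (log2 fold change 0.14, SE 0.16, adjusted p = 0.676 by edgeR, and -0.19 with library totals implied by RPM). Set against its partner, it took 11.6, 12.1 and 13.5 percent of both rows in EN and 7.99, 7.07 and 7.52 percent in EC. The EN shares of both antisense rows thus lay above all EC shares, and each comparison had the minimum two-sided exact permutation p of 0.1. Wilson 95 percent intervals reached at most 2.19 percentage points to either side for miR-3556b and 0.194 for miR-3556a. MiR-3587 had at most 10 counts in any library and was not tested. With overlapping rows summed, the log2 fold changes were -0.34 for miR-29a-3p (adjusted p = 0.126), -1.02 for miR-29b-3p (adjusted p = 0.0378) and -0.59 for miR-29c-3p (adjusted p = 0.0604) by edgeR, and the miR-29c arm difference was 0.82 (adjusted p = 0.0463 by limma).

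**Figure D4:**
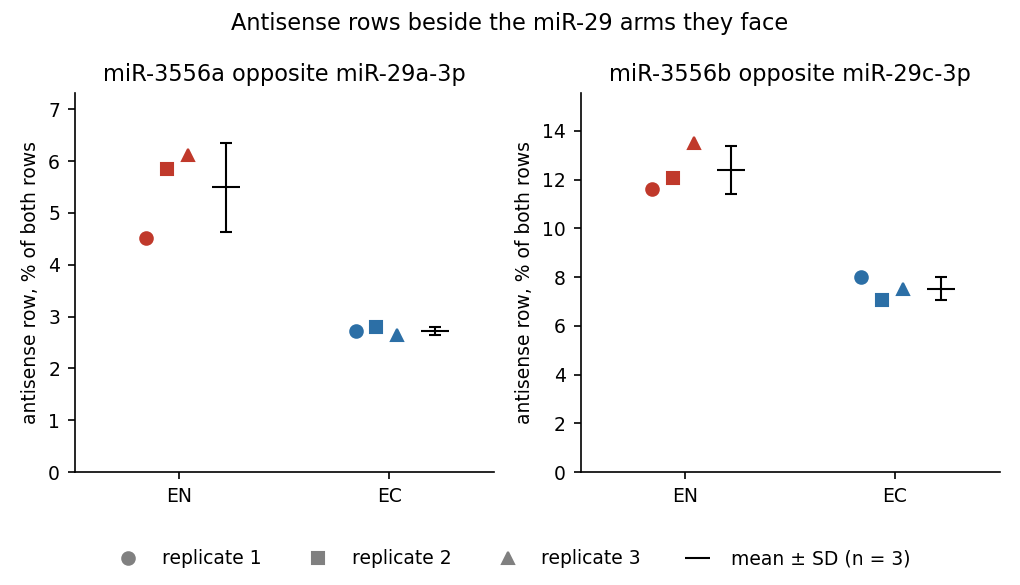
Antisense rows miR-3556a and miR-3556b as a percent of the summed counts of the antisense row and the miR-29 guide arm it faces, on linear axes from 0, with bars for mean ± SD (n = 3). EN libraries lie between 4.51 and 6.11 percent and EC libraries between 2.65 and 2.80 percent for miR-3556a, and EN lies above EC for miR-3556b too.

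The rows most alike in profile were looked for among 165 known miRNA rows of 100 CPM or more, by Pearson's r of log2(CPM + 1) over the 6 libraries, which share the difference between the groups. For miR-29a-3p the first was miR-29c-3p, at r = 0.961, and r = 0.957 after the group means were removed. Its gene lies on another chromosome, but the mature sequences differ at 1 base. The part of misassigned reads in this r was not tested. Then miR-30c-5p (r = 0.913) and let-7i-3p (r = 0.910) came next. For miR-29c-3p, let-7i-3p (r = 0.966) came before miR-29a-3p, and miR-30b-5p (r = 0.956) after it. For miR-29b-3p, miR-362-5p (r = 0.960), miR-340-5p (r = 0.959) and miR-140-5p (r = 0.952) came first, with miR-29c-3p at r = 0.939. With the group means removed, r with miR-29a-3p was 0.760 for miR-30c-5p and 0.808 for let-7i-3p. With miR-29c-3p it was 0.747 for let-7i-3p and 0.719 for miR-30b-5p. With miR-29b-3p it was 0.808 for miR-362-5p, 0.887 for miR-340-5p and 0.851 for miR-140-5p. These are descriptions over 6 libraries.

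Other miRNAs linked to the processes that miR-29 is known for were set beside the family. Of 16 tested miRNAs with a known part in fibrosis and matrix control, none passed edgeR's test and 4 had an unadjusted p under 0.05, 3 of them lower in EN, beside 21.7 percent of all tested rows in either direction and 11.5 percent lower. Their median log2 fold change was -0.24. The pro-fibrotic miR-21-5p stood at 47365 ± 2416 CPM in EN and 44650 ± 4919 CPM in EC (SD, n = 3), and miR-26a-5p at 25074 ± 2099 CPM in EN and 30413 ± 2385 CPM in EC, with log2 fold changes of 0.09 and -0.28. MiR-26b-5p and miR-21-3p had -0.27 and -0.21. All 4 tested miRNAs known to target DNA methyltransferase mRNAs had negative values, where 49.2 percent of all tested rows did, with a median of -0.55, and none passed. Of these 4, 3 also stand in the matrix list above: miR-152-3p, miR-101a-3p and miR-101b-3p. The values were miR-152-3p at -0.77 (SE 0.35), miR-101b-3p at -0.32 (SE 0.16), miR-148b-3p at -0.24 (SE 0.18) and miR-101a-3p at -0.95 (SE 0.24, unadjusted p = 0.00518). Of 16 tested miRNAs of neuronal maturation and survival, 2 passed, miR-128-3p at 0.69 (SE 0.10, adjusted p = 0.0177 by edgeR) and miR-23a-3p at 0.49 (SE 0.08, adjusted p = 0.0256). Both were higher in EN. Of all 628 tested rows 25, or 3.98 percent, passed in either direction, 13 of them higher in EN. At an unadjusted p of 0.05, 4 of the 16 were higher and 3 lower, beside 21.7 percent of all tested rows in either direction. The median was -0.09, and 8 of the 16 had negative values. MiR-24-3p, miR-23b-3p and miR-181a-5p, which are also abundant here, had -0.45, -0.20 and 0.14 without passing.

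The sequence features that divide the family were looked up in the 530 known rows with a RefSeq mature sequence. UUU at bases 9 to 11 was present in 8 of them, or 1.51 percent, of which 5 were tested. The feature was taken from miR-29b-3p and miR-29c-3p, so these are among the 5 by definition. The others were miR-132-5p at -0.41 (unadjusted p = 0.0501 by edgeR), miR-99a-3p at -0.37 (0.0630) and miR-301a-5p at -0.64 (SE 0.43, 0.182). None of these others had an unadjusted p under 0.05. Of all tested rows 49.2 percent had a negative log2 fold change. AGUGUU at any position was present in 8 rows, or 1.51 percent. The 5 tested ranged from -1.40 to -0.04. Only miR-29b-3p, from which the motif was taken, had an unadjusted p under 0.05 by edgeR. Of all tested rows 21.7 percent had one in either direction, and 11.5 percent with a lower level in EN. A match is a description of the letters only.

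Summed levels of miRNAs of other cell types did not overlap between the groups in the blood and fibroblast classes. Of all tested rows, taken singly, 29.6 percent did not overlap in either direction and 15.0 percent lay above in EN. Of 8 blood cell miRNAs, 7 had a row, and their sum lay between 157 and 179 CPM in EN and between 94.5 and 128 CPM in EC. It was mostly miR-150-5p (adjusted p = 0.151 by edgeR), then miR-451-5p. The white cell miR-142-5p lay lower, at 0 to 0.457 CPM in EN and 0.479 to 1.07 CPM in EC, and miR-142-3p overlapped, at 0.438 to 1.60 CPM in EN and 1.12 to 2.16 CPM in EC. Neither was tested. MiR-144-3p, miR-486 and miR-223-3p stood below 1 CPM in every library. The 4 miRNAs of fibroblast-rich tissue summed to between 190 and 202 CPM in EN and between 139 and 156 CPM in EC. Nearly all of it was miR-199a-3p (adjusted p = 0.107 by edgeR). Of the others, miR-214-3p went the other way, at 1.14 to 1.48 CPM in EN and 1.76 to 5.87 CPM in EC, while miR-143-3p reached at most 2.29 CPM and miR-145-5p at most 0.876 CPM. The sum of the endothelial miR-126a arms overlapped between the groups, at 1086 to 1229 CPM in EN and 1064 to 1144 CPM in EC. So did the sum of 4 muscle miRNAs, at 153 to 193 CPM in EN and 186 to 198 CPM in EC, and the liver miR-122-5p, at 8.23 to 14.4 CPM in EN and 5.96 to 9.74 CPM in EC. The muscle sum was mostly miR-499-5p, at 151 to 190 CPM in EN and 168 to 193 CPM in EC. MiR-1-3p reached at most 0.185 CPM, miR-133a-3p 1.39 CPM and miR-206-3p 1.67 CPM in EN and 28.9 CPM in EC. Of the 8 tested markers of these other cell types 2 passed, where 3.98 percent of all rows did, both chosen for mention after their values were seen: miR-126a-5p fell to 33.2 ± 5.55 CPM in EN, against 60.3 ± 5.20 CPM in EC, and the red cell miR-451-5p rose to 23.3 ± 6.26 CPM in EN, against 8.10 ± 2.60 CPM in EC (SD, n = 3, adjusted p = 0.0471 for each by edgeR). The other endothelial arm, miR-126a-3p, makes up most of that class sum and did not fall. It stood at 1103 ± 84.4 CPM in EN and 1049 ± 37.0 CPM in EC (log2 fold change 0.07, adjusted p = 0.731 by edgeR). The part of these other cell types in the miR-29 values was not tested.

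The total behind the authors' deposited RPM values is larger than the summed miRNA counts, and with it the difference in the guide arms was wider. The miRNA counts were 26.9, 25.0 and 25.5 percent of that total in EN and 32.6, 32.2 and 30.9 percent in EC. The family's 3p counts took 0.437, 0.428 and 0.374 percent of it in EN and 0.719, 0.653 and 0.830 percent in EC. On this scale the median of all tested rows was -0.30, and 101 of 619 rows, or 16.3 percent, passed the threshold, 88 of them, or 14.2 percent, lower in EN. The 3 guide arms were among them, with log2 fold changes of -0.69 for miR-29a-3p (adjusted p = 0.00993), -1.32 for miR-29b-3p (adjusted p = 0.0109) and -0.97 for miR-29c-3p (adjusted p = 0.00904) by edgeR. DESeq2 called 88 of 628 rows, or 14.0 percent, and 49 of them, or 7.80 percent of all, were lower in EN. MiR-29b-3p (adjusted p = 0.000153) and miR-29c-3p (adjusted p = 0.000993) were among these 49. DESeq2 gave 152 of the 628 rows no adjusted p, so the shares among rows that could be called are higher. Limma-voom called 16 rows, or 2.55 percent, of which 7, or 1.11 percent, were lower, and no member. Fewer copies per cell and a larger amount of other small RNA cannot be told apart from these counts.

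**Figure D5:**
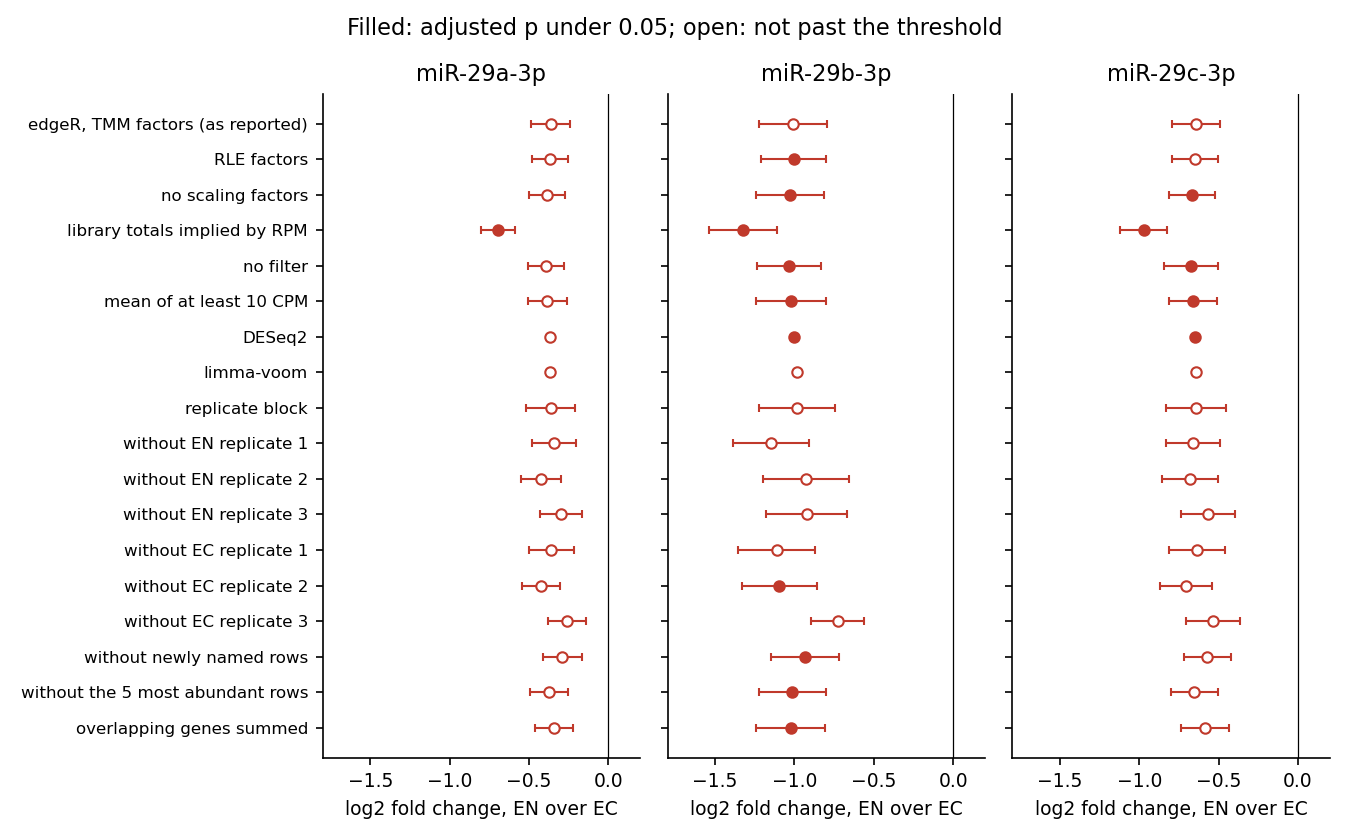
Log2 fold change of EN over EC for the 3 guide arms under each way of processing, with bars for ± SE where edgeR gives one (none is drawn for DESeq2 and limma-voom) and filled circles where the adjusted p is under 0.05. Every value lies below 0, and miR-29b-3p ranges from -1.32 to -0.73. The alternative with miR-29a-3p and miR-29c-3p summed is not drawn.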

How the data were processed

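The authors deposited 1 table with read counts per mature miRNA row and library and, beside them, RPM values. The deposited RPM is the count over a library total, within 0.0015 in all values. Per the submitters' processing notes HISAT2 2.0.5 and Rnor 6.0 were used. The sources used here do not give the counting program, the strand rule or the treatment of reads that match several rows. Of 1289 rows, 584 carry a known miRNA name and 705 are newly named predictions.

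Counts were tested with edgeR 4.0.16 in R 4.3.3 (filterByExpr, TMM factors, robust quasi-likelihood fit, group as the only term) with Benjamini-Hochberg adjustment over all 628 tested rows. Each SE was obtained from the log2 fold change and its F statistic. Arm use was tested by limma 3.58.1 with trend and robust settings on log2((5p + 1)/(3p + 1)) in miRNAs whose arms each averaged at least 20 counts. Ratios and shares were compared by exact permutation with scipy 1.17.1. Alternatives were DESeq2 1.42.0, limma-voom, other scaling factors and library totals, other filters and pseudocounts, a replicate block, overlapping rows summed, and each library left out in turn. The edgeR and limma fits were first tested on simulated data. Summed miRNA counts were 4521694 to 6554639 per library. Python 3.11.15, pandas 2.3.3 and matplotlib 3.10.9 were used for tables and figures. The members, lists, tests and alternatives were chosen with earlier results of these data known. Named rows are all miR-29 rows, rows of overlapping genes, the 3 rows most alike to each guide arm, and in each context list those past the threshold and up to 4 of highest level. Markers of other cell types are given by summed level and named outside that rule. RefSeq sequences are of build GRCr8, which differs from the authors' build.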

Additional observations from a re-analysis of the deposited data

How the results depend on the processing

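The 3 guide arms kept a negative log2 fold change in all 18 alternatives. The adjusted p was under 0.05 in 10 of them for miR-29b-3p, 5 for miR-29c-3p and 1 for miR-29a-3p. The 18 include the sum of miR-29a-3p and miR-29c-3p, where both were given the value of the sum, -0.37. That sum is nearly all miR-29a-3p and is no separate value of miR-29c-3p. The 25 calls became 101 with library totals implied by RPM, 44 without a filter, 88 with DESeq2 (152 rows without an adjusted p), 16 with limma-voom and 2 to 39 without 1 library. Arm use calls numbered 6, and 0 to 14 without 1 library. With library totals implied by RPM, where the median of all rows was -0.30, miR-29b-5p became -0.21, miR-29c-5p -0.080 and miR-3556b -0.19. Without 1 library miR-29b-5p ranged from -0.23 to 0.53 and the miR-29a arm difference from -0.21 to 0.17. Beyond the changed divisor and fewer samples, the cause was not tested. The ratios between guide arms and the shares kept their direction in every alternative, with no p under 0.05, which groups of 3 cannot reach. Rows with few counts, such as miR-29b-5p, are limited by depth.

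A fit with a replicate block made 2 calls, and the adjusted p was 0.156 for miR-29b-3p, 0.187 for miR-29c-3p, 0.305 for miR-29a-3p and 0.0928 for the miR-29c arm difference of 0.90. Between libraries of the same number, deviations from the group means had correlations of 0.0765, -0.0523 and 0.00701, so the numbers were not taken to pair the libraries.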
